A study of Mus musculus with 10 samples.

Results

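AMPA receptors are the glutamate-gated channels that carry most fast excitatory transmission in the brain. Genes for their pore subunits and best known auxiliary proteins were examined in RNA bound to ribosomes in the mouse ventral tegmental area. Separate libraries of controls and of restrained mice were compared. The genes were taken by symbol from the deposited count table: the subunit genes Gria1, Gria2, Gria3 and Gria4, the TARP genes Cacng2, Cacng3, Cacng4 and Cacng8, and the cornichon genes Cnih2 and Cnih3. All 10 were found among the 56691 genes of the table, and all 10 passed the filter on low counts that left 18440 genes for testing. The groups were 5 libraries labelled Normal (controls) and 5 libraries from animals held in acute restraint for 30 min. Both came from male C57BL/6 mice of wild-type genotype, whose age the labels do not give, and in both groups the RNA was enriched from dopaminergic neurons that expressed an NBL10-HA construct. The promoter or Cre line that confines the construct to these neurons is not given in the sources used here, nor is the number of animals behind a library. P-values therefore measure the spread between libraries, which may be partly technical.

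Each AMPA receptor is an assembly of subunits drawn from GluA1, GluA2, GluA3 and GluA4, encoded by Gria1 to Gria4. Receptors that contain the edited form of GluA2 pass little calcium, while receptors that lack it are calcium permeable, so the GluA2 content of a neuron sets a basic property of its excitatory synapses. TARPs (transmembrane AMPA receptor regulatory proteins) bring receptors to the surface, anchor them at synapses and slow their closing, and cornichons act in their export and gating. In dopamine neurons of the ventral tegmental area, AMPA receptors drive firing in response to glutamate inputs, and their subunit make-up is known for changing after drugs of abuse and stress.

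The part of the subunits on which calcium permeability depends is shown in the coding strand of the 4 genes, because the make-up of the subunit family is the result described below. It is the stretch of coding exon around the Q/R site in the pore loop, from transcripts of GENCODE M21 (GRCm38), written 5′ to 3′ with the codon of the Q/R site in capitals. The gene encodes glutamine there in all 4 subunits. In Gria2 RNA the middle base of this codon is edited by ADAR2, the product of Adarb1, so that it is read as arginine.
Gria1: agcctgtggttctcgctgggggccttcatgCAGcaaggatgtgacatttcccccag
Gria2: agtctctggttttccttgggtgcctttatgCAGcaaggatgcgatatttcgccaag
Gria3: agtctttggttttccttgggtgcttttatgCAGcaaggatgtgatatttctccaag
Gria4: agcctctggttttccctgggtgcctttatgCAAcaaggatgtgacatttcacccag
The Gria1 stretch lies at chr11:57243064-57243119 on the plus strand, in exon 11 of 16. The Gria2 stretch lies at chr3:80706888-80706943 on the minus strand, in exon 11 of 16. The Gria3 stretch lies at chrX:41610235-41610290 on the plus strand, in exon 11 of 16, and the Gria4 stretch at chr9:4464114-4464169 on the minus strand, in exon 12 of 17. Over the 56 bases, 52 are the same in Gria3 as in Gria2, 49 in Gria4 and 45 in Gria1. The deposited counts are sums over all exons of a gene. They tell neither edited from unedited Gria2 RNA nor the flip from the flop splice forms, and all values below are levels of whole genes.

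Library totals ran from 56082358 to 86584968 counts, with 668 to 16517 counts per library for a member. Restraint 1 stood apart from the other 9 libraries in a principal component analysis (92.1 on component 1, against -19.2 to 4.08) and had the fewest genes with a count (20936). Both groups held RNA of other cells besides dopamine neurons. The 12 dopamine neuron markers summed to 1228 to 1842 CPM (counts relative to library size, with TMM scaling) in controls and 1462 to 2094 CPM after restraint. Th, which encodes the enzyme that limits dopamine synthesis, had 411 ± 78.6 and 477 ± 65.3 CPM (SD, n = 5 each). Of these 12, 10 had log2 fold changes above 0 and 2 below, with a median of 0.26 (49.6% of all genes lay above 0). At an unadjusted edgeR p under 0.05, 6 were higher and 0 lower, where 5.64% and 6.04% of all genes were. With edgeR 0 passed after adjustment. DESeq2 passed 2, En1 (0.57 ± 0.11, SE) and Foxa2 (0.46 ± 0.12), where it passed 1.80% of all genes. The 6 GABA neuron markers summed to 1561 to 1893 and 1812 to 2102 CPM, and the 8 astrocyte markers to 3844 to 4415 and 4418 to 5521 CPM. The astrocyte ranges lay only just apart. The largest of the 8 was Gfap, with 1919 ± 121 and 2471 ± 316 CPM (SD, n = 5 each), groups that did not overlap, as in 2.61% of all genes. Of the 8, 7 had log2 fold changes above 0 (49.6% of all genes did), from 0.04 in Slc1a2 to 0.37 in Gfap. Aldh1l1 lay below 0 (-0.07), and the median of the 8 was 0.20. At an unadjusted edgeR p under 0.05, 2 were higher, Gfap and Agt (0.27), and 0 lower, where 5.64% and 6.04% of all genes were. With edgeR 0 passed, and with DESeq2 1 did, Gfap, where 1.80% of all genes did. The 8 markers of oligodendrocyte precursors, cells that also carry AMPA receptors, summed to 249 to 316 and 284 to 322 CPM. The 5 glutamate neuron markers summed to 415 to 447 and 358 to 487 CPM, and the 7 oligodendrocyte markers to 1539 to 1879 and 1469 to 2034 CPM. The 7 microglia markers summed to 15.04 to 26.8 and 16.8 to 23.8 CPM, and the 7 endothelial and mural markers to 11.9 to 17.8 and 14.2 to 22.8 CPM. Median log2 fold changes were 0.27 (endothelial and mural), 0.14 (GABA neuron), 0.09 (oligodendrocyte), 0.03 (microglia) and -0.01 (glutamate neuron). At an unadjusted edgeR p under 0.05, in this order, 3, 1, 3, 0 and 0 were higher, where 5.64% of all genes were. In each of these lists 0 were lower, where 6.04% of all genes were. DESeq2 passed 1 of these markers, Ermn of the oligodendrocyte list, where it passed 1.80% of all genes. No marker was at 0 in all libraries. AMPA receptor genes are expressed by neurons of all these classes and by some glia, so the levels below are those of the enriched RNA and are not assigned to a cell type. The part of the other cell types in the results was not tested, and fewer cells of a type and less RNA per cell cannot be told apart in such libraries.

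Every member was present in every library, over a wide range of levels. Per kilobase of exon, Cnih2 was highest in controls, at 50.3 ± 4.22 CPM per kilobase (SD, n = 5), followed by Gria1 at 32.6 ± 4.61, and neither range overlapped its neighbour in the order. Gria4 (15.7 ± 2.45), Cacng4 (14.8 ± 0.934) and Cacng2 (14.6 ± 3.44 CPM per kilobase) came next, with control ranges that overlapped. Gria2 stood at 9.93 ± 0.370 CPM per kilobase, Cacng3 at 9.25 ± 1.33 and Gria3 at 8.39 ± 0.546, and the range of Cacng3 overlapped both others while the ranges of Gria2 and Gria3 did not overlap. Cnih3 (6.55 ± 0.816) and Cacng8 (6.15 ± 1.57 CPM per kilobase) were the lowest and overlapped. Part of this order rests on the length used. The deposited exon length of Gria2 is 15548 bases, the union of all its annotated exons, while its longest coding transcript in GENCODE M21 has 10371 bases, and for Gria3 these lengths are 9859 and 5192. Per kilobase of the longest coding transcript Gria2 stood at 14.9 ± 0.555, Gria3 at 15.9 ± 1.04 and Gria4 at 18.2 ± 2.84, and Cnih2 (51.3 ± 4.30) and Gria1 (35.6 ± 5.02) kept the highest levels. The level of Gria2 against the other subunits is therefore uncertain, while its change between groups does not depend on a length.

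**Figure D1:**
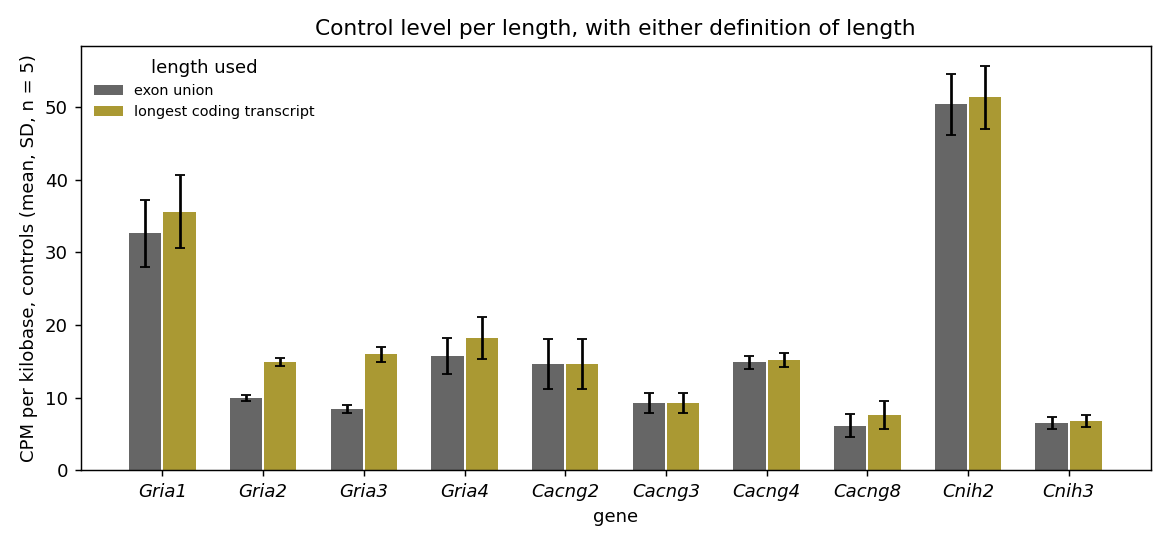
Mean control level of each gene in CPM per kilobase (bars; error bars, SD over 5 libraries), with the deposited union of exons or the longest coding transcript as the length. Cnih2 and Gria1 were highest with either length, while Gria2 rose from 9.93 to 14.9 and Gria3 from 8.39 to 15.9 CPM per kilobase with the shorter length.

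The first question was whether restraint changed the level of any AMPA receptor gene. None of the 10 passed the test (edgeR quasi-likelihood test, Benjamini-Hochberg over 18440 genes, adjusted p of 0.361 to 0.941), where 0.0217% of all genes passed. DESeq2 also passed 0 of the 10, where it passed 1.80% of all genes. At an unadjusted p under 0.05, Cnih2 and Cacng4 were on the higher side, 2 of 10 where 5.64% of all genes were, and Gria2 on the lower side, 1 of 10 where 6.04% were. Of the 10 fold changes, 8 were above 0, against 49.6% of all genes, and their median was 0.10 on the log2 scale, against -0.00 over all genes. In 0 of the 10 did the CPM ranges of the groups lie apart, which they did in 2.61% of all genes. On simulated data with the spread of these libraries, the test found 66% of 1.5-fold and 89% of 2-fold changes among genes with a mean above 50 counts. The simulated data gave 159 calls, against 4 in the real data, and the adjustment is stricter where fewer genes are called. These percentages may therefore be too high for the real test. The 95% intervals below give the size of change that each gene still allows.

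**Figure D2:**
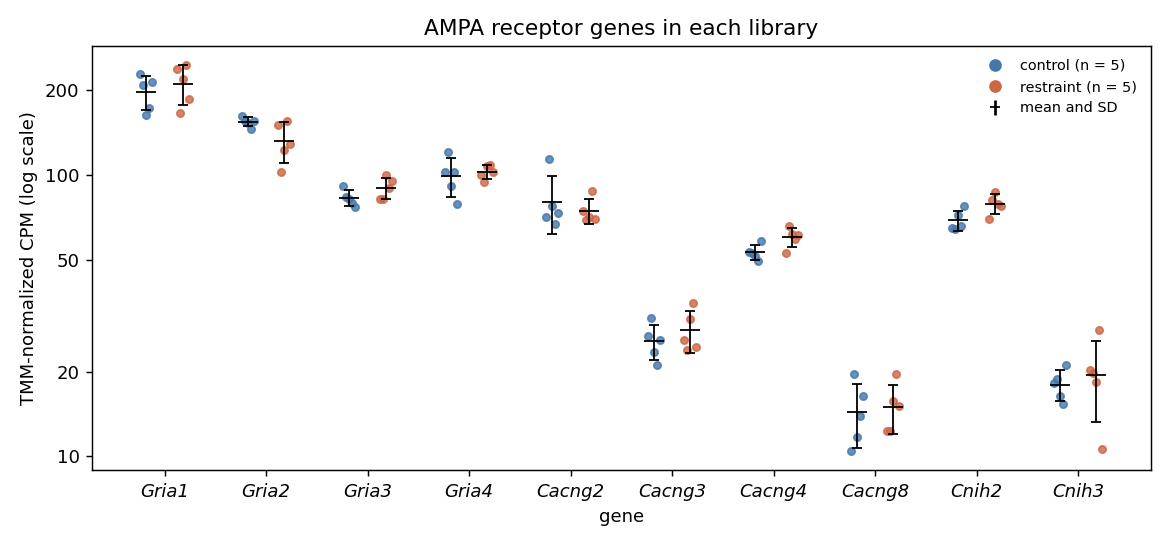
TMM-normalized CPM (log axis) of the 10 genes in each of 5 control and 5 restraint libraries, with mean and SD. The groups overlapped for each gene, and 3 restraint libraries of Gria2 lay below all of its controls.

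Among the subunits, Gria2 was the 1 whose estimate lay below 0. Gria2 (chromosome 3, 80588757 to 80710142, GRCm39, minus strand), which encodes the subunit that limits calcium flow, had 162, 155, 153, 146 and 156 CPM in controls 1 to 5. After restraint it had 150, 103, 123, 156 and 129 CPM in libraries 1 to 5. Controls were close together, while restraint libraries 2, 3 and 5 lay below all of them and libraries 1 and 4 lay within their range. The means were 154 ± 5.76 and 132 ± 21.5 CPM (SD, n = 5 each), a ratio of 0.855. The log2 fold change of -0.23 ± 0.10 (SE; 95% interval -0.43 to -0.02) did not pass (edgeR adjusted p = 0.379). Without restraint 2 the log2 fold change was -0.15.

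Gria1 (chromosome 11, 56902213 to 57221070), whose product enters synapses during potentiation, had the most counts of the members. Its control libraries ran 228, 208, 163, 173 and 213 CPM and its restraint libraries 238, 167, 219, 245 and 186 CPM. Both groups spread widely over nearly the same range. The log2 fold change was 0.10 ± 0.12 (SE; 95% interval -0.15 to 0.34; edgeR adjusted p = 0.811). Gria3 (chromosome X, 40489731 to 40767478), which encodes a subunit that commonly pairs with GluA2, had 91.2, 83.6, 82.3, 79.7 and 76.9 CPM in controls and 82.1, 81.8, 99.6, 89.7 and 95.1 CPM after restraint. Restraint libraries 3 and 5 lay above all controls and the others among them (log2 0.12 ± 0.08, SE; edgeR adjusted p = 0.630). Gria4 (chromosome 9, 4417896 to 4796234), which encodes a subunit with fast kinetics, ran from 78.6 to 120 CPM in controls and from 94.2 to 108 CPM after restraint. All restraint libraries lay within the control range (log2 0.05 ± 0.10, SE; 95% interval -0.16 to 0.26; edgeR adjusted p = 0.907).

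The second question was whether the make-up of each family differed between the groups. It was asked as the share of 1 gene in its family's counts per exon length, a value computed within a library that does not depend on the library's scaling. The share of Gria2 among Gria1 to Gria4 fell after restraint. It was 14.1, 13.9, 16.5, 15.1 and 15.3% in controls 1 to 5, and 13.2, 11.5, 11.1, 13.04 and 12.7% in restraint libraries 1 to 5. Every restraint library lay below every control, though the highest of them, restraint 1, was close to control 2. The means were 14.96 ± 1.04% and 12.3 ± 0.955% (SD, n = 5 each), a difference of -2.65 percentage points (two-sided exact permutation test, p = 0.00794, below which groups of 5 and 5 cannot go; 0.0238 adjusted over the 3 shares tested). No background for shares is given here. On a different measure, the CPM of single genes, the ranges lay apart in 2.61% of all genes tested, and those of Gria2 overlapped. With the longest coding transcripts as lengths the shares were 17.7 ± 1.09% and 14.6 ± 1.21%, and without division by length they were 29.0 ± 1.56% and 24.6 ± 1.77% (exact permutation p = 0.00794 for each).

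The fall in the Gria2 share went with small differences in the shares of the other subunits, which were not tested. Gria1 made up 48.8 ± 3.63% in controls and 50.6 ± 2.85% after restraint, Gria4 23.6 ± 3.09% and 23.8 ± 1.82%, and Gria3 12.6 ± 0.905% and 13.3 ± 1.62% (SD, n = 5 each). Each of these ranges overlapped between the groups. A trend of level on exon length differed between libraries, with slopes of -0.0710 to 0.0657 (log2 CPM per log2 length) among controls and of -0.0674 to 0.0971 among restraint libraries. Restraint 1 and 4, the restraint libraries with the highest Gria2 level, had the 2 highest slopes of the 10. With this trend removed the difference in the Gria2 share was -2.68 percentage points (exact permutation p = 0.00794), and the log2 fold change of Gria2 was -0.25 (edgeR adjusted p = 0.195). Without restraint 1, the library that stood apart, the difference was -2.87 percentage points (exact permutation p = 0.00794). The RNA editing enzymes gave no call: Adarb1 had 294 ± 33.5 CPM in controls and 325 ± 14.3 CPM after restraint (log2 0.15 ± 0.08, SE; edgeR adjusted p = 0.522), Adar, which shares 16.8% of its exon bases with Chrnb2, 93.4 ± 44.1 and 76.6 ± 20.3 CPM (-0.29 ± 0.23), and Adarb2 36.5 ± 4.74 and 36.8 ± 5.58 CPM (0.01 ± 0.11).

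**Figure D3:**
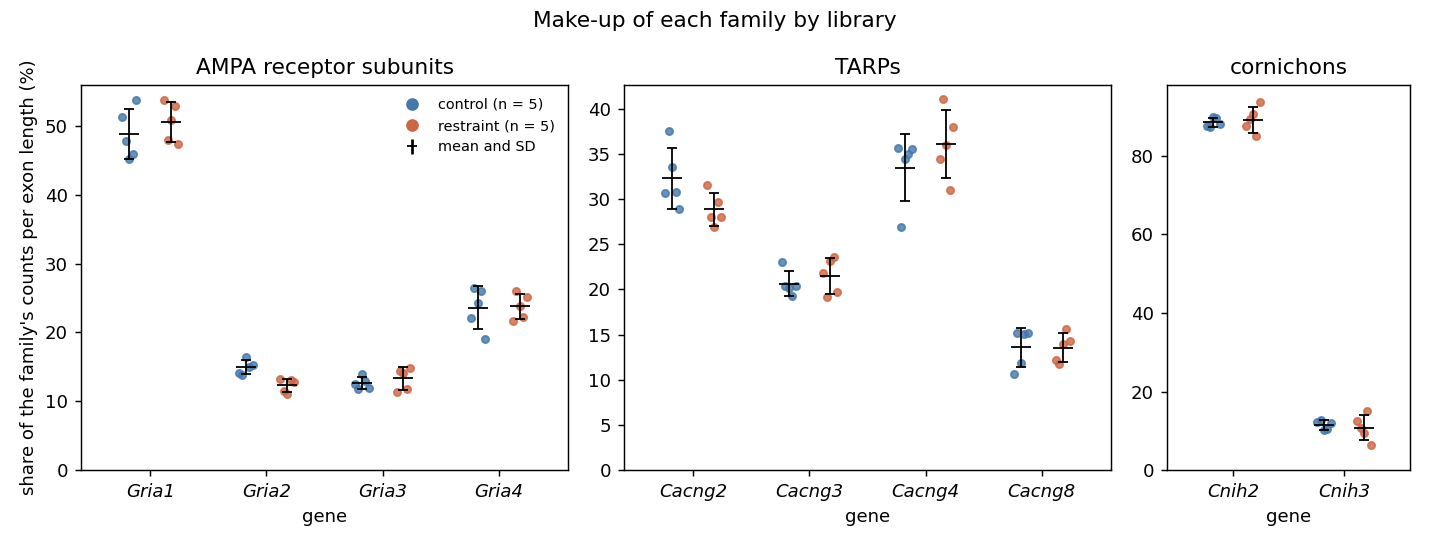
Share of each gene in its family's counts per exon length, in percent, for each control and restraint library, with mean and SD (n = 5 each); the vertical axes start at 0 and differ between panels. The 5 restraint libraries of Gria2 lay between 11.1 and 13.2%, below the 5 controls at 13.9 to 16.5%, while the groups overlapped for each of the other genes.

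The TARP genes gave 3 estimates above 0 and 1 below. Cacng4 (chromosome 11, 107623183 to 107685383) encodes gamma-4, a TARP also found in oligodendrocyte precursors and prominent in the developing brain. It had 53.2, 52.8, 51.5, 49.4 and 58.4 CPM in controls and 52.8, 65.9, 61.6, 59.4 and 61.1 CPM after restraint. Restraint libraries 2 to 5 lay above all controls and library 1 lay at the level of control 2. The means were 53.1 ± 3.34 and 60.2 ± 4.78 CPM (SD, n = 5 each). The log2 fold change of 0.18 ± 0.08 (SE; 95% interval 0.01 to 0.35) did not pass (edgeR adjusted p = 0.396). Of the 8 markers of oligodendrocyte precursors, 4 lay above 0 and 4 below, with a median log2 fold change of -0.08. With edgeR 0 passed, and with DESeq2 1 did, Ptprz1, where 1.80% of all genes did. Ptprz1, a receptor phosphatase gene that is also expressed in astrocytes, had 82.0 to 106 CPM in controls and 107 to 139 CPM after restraint. The groups did not overlap, as in 2.61% of all genes (log2 0.37 ± 0.09, SE; edgeR adjusted p = 0.139, DESeq2 adjusted p = 0.0168). Olig1 (0.03 ± 0.11), Olig2 (0.12 ± 0.15) and Pdgfra (0.03 ± 0.17) also had estimates above 0, and Cspg4 (-0.20 ± 0.16), Gpr17 (-0.35 ± 0.18), Vcan (-0.18 ± 0.16) and Sox10 (-0.19 ± 0.12) below. Their part in the Cacng4 level was not tested.

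Cacng2 (chromosome 15, 77875948 to 78004228) encodes stargazin, the TARP found through the stargazer mouse. It had 70.7, 114, 77.5, 67.0 and 73.3 CPM in controls and 74.5, 69.3, 71.1, 87.7 and 69.5 CPM after restraint. Control 2 stood far above the other controls and restraint 4 above the other restraint libraries. The log2 fold change was -0.11 ± 0.13 (SE; 95% interval -0.38 to 0.15; edgeR adjusted p = 0.798), and without control 2 it was 0.05, so its direction rests on that library. The share of Cacng2 among the 4 TARP genes was 32.3 ± 3.38% in controls and 28.9 ± 1.81% after restraint, a difference of -3.43 percentage points that did not pass (exact permutation p = 0.0556, 0.0833 adjusted over the 3 shares). Without control 5 the difference was -4.27 percentage points (exact permutation p = 0.0317, 0.0476 adjusted over the 3 shares), and with the length trend removed it was -3.65 (exact permutation p = 0.0238, 0.0357 adjusted).

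Cacng3 (chromosome 7, 122269715 to 122368616), which encodes the cortical TARP gamma-3, had 25.7 ± 3.71 CPM in controls and 28.0 ± 4.78 CPM after restraint (log2 0.13 ± 0.12, SE; edgeR adjusted p = 0.758). Restraint 4, at 35.1 CPM, lay above all controls, and the other restraint libraries lay within their range of 21.2 to 31.0 CPM. Cacng8 (chromosome 7, 3439199 to 3464164), which encodes gamma-8, the main TARP of the hippocampus, was the lowest of the TARP genes. It had 14.4 ± 3.67 and 14.998 ± 3.01 CPM (log2 0.06 ± 0.17, SE; 95% interval -0.30 to 0.41; edgeR adjusted p = 0.941). Its libraries ran from 10.5 to 19.6 CPM in controls and from 12.3 to 19.6 CPM after restraint. The highest library of each group was the one that was also highest for Cacng2 and Cacng3, control 2 and restraint 4.

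The cornichon genes differed in level and in spread. Cnih2 (chromosome 19, 5142896 to 5148549), whose product slows AMPA receptor closing in hippocampal neurons, had 64.7, 64.1, 72.2, 66.1 and 77.5 CPM in controls and 69.9, 81.4, 87.2, 78.9 and 77.5 CPM after restraint. Restraint libraries 2, 3 and 4 lay above all controls, and all 5 above the control median. The means were 68.9 ± 5.77 and 79.0 ± 6.26 CPM (SD, n = 5 each). The log2 fold change of 0.20 ± 0.08 (SE; 95% interval 0.02 to 0.37) had the smallest p of the members and did not pass (edgeR adjusted p = 0.361). Cnih3 (chromosome 1, 181180193 to 181288206), its close paralogue, had 18.3, 18.9, 16.4, 15.4 and 21.1 CPM in controls and 20.2, 19.8, 18.4, 28.0 and 10.6 CPM after restraint. Restraint 4 was the highest and restraint 5 the lowest of all 10 libraries. The log2 fold change was 0.11 ± 0.18 (SE; 95% interval -0.28 to 0.49; edgeR adjusted p = 0.883), and without restraint 4 it was -0.06. Cnih2 made up 88.5 ± 1.19% of the counts per exon length of the pair in controls and 89.1 ± 3.25% after restraint (exact permutation p = 0.698, also 0.698 adjusted over the 3 shares).

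**Figure D4:**
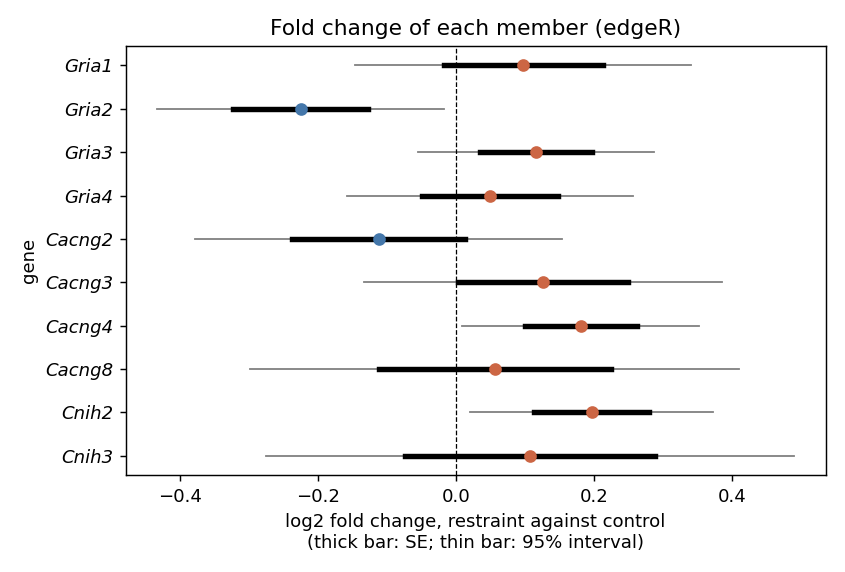
Log2 fold change of each gene, restraint against control, from edgeR (points; thick bars, SE; thin bars, 95% interval; orange above 0 and blue below). Gria2 at -0.23, Cacng4 at 0.18 and Cnih2 at 0.20 had intervals that left out 0 before adjustment, and none passed after adjustment over all genes.

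Other genes of the receptor complex gave no call with edgeR. Of 27 further genes for auxiliary, assembly and clustering proteins, 26 were tested, 14 lay above 0 (49.6% of all genes did) and 12 below, the median log2 fold change was 0.01, and 0 passed (3 on the higher and 1 on the lower side at an unadjusted p under 0.05, where 11.7% of all genes reached it on either side). Prrt2 was not tested: it had 15 counts in all libraries together, and 92.4% of its exon bases are shared with the annotated gene Gm42742, where reads are left unassigned. Olfm1, which encodes noelin-1, a secreted protein bound to native AMPA receptors, had the smallest p. It had 374 to 425 CPM in controls and 478 to 567 CPM after restraint, and the groups did not overlap, as in 2.61% of all genes. Its log2 fold change of 0.35 ± 0.07 (SE) did not pass with edgeR (adjusted p = 0.080) and passed with DESeq2 (adjusted p = 0.0015), the 1 gene of this list that did, where 1.80% of all genes did. Gsg1l, an auxiliary subunit that dampens receptor currents, had 66.9 ± 13.3 and 90.0 ± 16.4 CPM (log2 0.43 ± 0.14, SE), and Nrn1, a small surface protein found in receptor complexes, which shares 26.9% of its exon bases with other genes, 63.9 ± 8.82 and 80.9 ± 11.7 CPM (0.34 ± 0.11). C1ql3, a synaptic organizer, had 4.66 ± 1.07 and 3.36 ± 0.626 CPM (-0.47 ± 0.19), with 64.2% of its exon bases shared. Cacng7, a TARP outside the 10, had 96.4 ± 13.7 and 109 ± 20.2 CPM (0.17 ± 0.12), a control level of 39.5 CPM per kilobase that was above those of the 4 TARP genes described here.

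Scaffold and trafficking genes gave a similar picture. All 40 were tested, 27 lay above 0 and 13 below, where 49.6% of all genes lay above, and the median log2 fold change was 0.04, against -0.00 over all genes. With edgeR 0 passed, where 0.0217% of all genes did, and with DESeq2 0, where 1.80% did. At an unadjusted p under 0.05, 2 were on the higher and 1 on the lower side, where 5.64% and 6.04% of all genes were. Arc, the activity-induced gene whose product drives receptor endocytosis, had 22.4 ± 4.44 and 29.0 ± 6.26 CPM (log2 0.37 ± 0.15, SE). Gripap1, which encodes a recycling endosome protein that binds GRIP1, had 138 ± 13.8 and 158 ± 9.80 CPM (0.19 ± 0.08). Dlg1, which encodes SAP97, a scaffold that binds GluA1, had 73.1 ± 6.59 and 63.8 ± 6.19 CPM (-0.20 ± 0.09), and Dlg4, which encodes PSD-95, the scaffold to which TARPs bind, 491 ± 59.5 and 557 ± 59.8 CPM (0.18 ± 0.09). Of 20 genes for kinases and phosphatases that act on the receptor, 13 lay above 0, where 49.6% of all genes did, the median was 0.05 and 0 passed with edgeR or DESeq2. At an unadjusted p under 0.05, 3 were on the higher side, where 5.64% of all genes were, and 0 on the lower side, where 6.04% were. The 3 were Prkca, a protein kinase C gene (0.25 ± 0.09), Ppp1r9b, which encodes the phosphatase anchor spinophilin (0.26 ± 0.10), and the kinase gene Fyn (0.15 ± 0.07), whose groups did not overlap (114 to 123 and 128 to 137 CPM), as in 2.61% of all genes. The fourth by p, Prkaca, a catalytic subunit of protein kinase A, had a log2 fold change of -0.15 ± 0.07. Of 9 genes for kainate and delta receptors and their partners, 8 lay above 0, where 49.6% of all genes did, the median was 0.11 and 0 passed with edgeR or DESeq2. At an unadjusted p under 0.05 there was 1, on the higher side, where 5.64% of all genes were. Those with the smallest p were Neto2, a kainate receptor auxiliary subunit (0.19 ± 0.08), and the kainate receptor subunits Grik2 (0.17 ± 0.11), Grik1 (0.17 ± 0.13) and Grik3 (0.17 ± 0.15).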

How the data were processed

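The deposited table holds raw read counts per gene and library, summed over exons by featureCounts 2.0.3 under GENCODE M30, per the file headers. Neither strand nor counting of read pairs was set, so each mate was counted and overlapping genes on opposite strands were not told apart, per the file headers. Even numbers made up 76.8 to 79.8% of a library's gene counts in controls and 80.0 to 84.8% after restraint. These ranges lay only just apart, and the part of this difference in the results was not tested. FastQC, Trimmomatic and STAR are named without versions in the submitters' processing notes, which give mm10 as the build, while the annotation is one of GRCm39. Gene positions are printed as the table holds them, and positions in GENCODE M21 are in GRCm38. Exon lengths are those of the deposited table. Symbols were matched by identifier for 52073 of 56691 genes.

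Counts were filtered with filterByExpr (count minimum 10, total minimum 15), normalized by TMM and tested with edgeR 4.0.16 (glmQLFit, glmQLFTest, group as the only term, R 4.3.3), with Benjamini-Hochberg adjustment over 18440 genes and a threshold of 0.05. Standard errors come from the fold change and the F statistic, and their median over genes was 0.136. Log2 CPM used a prior count of 2. Shares of 3 genes in their families were compared by exact permutation over all 252 assignments of the libraries to the groups. The members and lists were chosen with earlier results of these data known. The genes named are the 10 members, the 4 of each other list with the smallest p, with further genes (Cacng7, Adarb2, Prrt2 and markers) named after their values were seen, and for each Gria gene the 3 genes with the highest correlation over the libraries, of which some are not reported here.

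Alternatives were RLE and upper quartile normalization, 2 other filters (at least 1 count; CPM of at least 1 in 5 libraries), DESeq2 1.42.0, limma-voom (limma 3.58.1), a block for the replicate number, removal of each library's trend on exon length (lowess, span 0.3), each library left out and, for shares, no length. The longest coding transcript as length and the removal of the length trend from shares were added after the data were seen. The test was tested on simulated data for restraint against control on 17995 genes: of its 159 calls, 2.52% were unchanged genes. Python 3.11.15 was used for sequences and figures.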

Additional observations from a re-analysis of the deposited data

Results flagged for a closer look

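In 2 of 26 sets of 5 libraries checked (each gene and each of the 3 shares, in each group), 1 library lay far from the other 4, where chance does so in about 5% of sets. Both concern Cacng2, the stargazin gene. Among controls, control 2 had 114 CPM against 67.0 to 77.5 CPM in the others, a gap of 0.774 of the range. After restraint, restraint 4 had 87.7 CPM against 69.3 to 74.5 CPM in the others, a gap of 0.715 of the range. In both groups it was the library with the highest slope of log2 CPM on exon length (0.0657 in control 2 and 0.0971 in restraint 4), and the part of that slope in the Cacng2 level was not tested.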

How the results depend on the processing

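None of the 10 members passed the threshold under any of the 18 alternatives (0 in each), and the direction held for Gria1, Gria2 (-0.29 to -0.15), Gria3, Cacng3, Cacng4 and Cnih2. With 1 library left out it reversed for Gria4 without control 5 (-0.031; range to 0.134), Cacng2 without control 2 (0.051; range from -0.176), Cacng8 without control 1 (-0.033), control 3 (-0.0023) or restraint 4 (-0.054; range to 0.198), and Cnih3 without restraint 4 (-0.057; range to 0.258). The cause was not tested. At an unadjusted edgeR p under 0.05, no member was lower without control 1, 2 or 3, or without restraint 2, 3 or 5. None was higher without control 1 or 4, or without restraint 2 or 3. Over all genes in these fits, from 1631 of 18810 (without restraint 3) to 2458 of 18752 (without restraint 5) reached that p on either side. Beside this, a count of 0 among 10 members says little. Over all genes, 1 passed as higher and 3 as lower, against 103 and 199 with the filter of at least 1 count, 139 and 192 with DESeq2, 20 and 48 with the length trend removed, 0 and 0 with the replicate block (1704 at an unadjusted p under 0.05 with edgeR), and 0 to 9 and 0 to 83 with 1 library left out (9 and 83 without restraint 5, 4 and 16 without control 5, 2 and 15 without restraint 2). The replicate numbers did not pair the libraries by the measure used: the correlations of same-numbered libraries ran from -0.164 to 0.027, and in 0 of 5 was a control closest to its own number. In another set of correlations restraint 5 was the restraint library closest to controls 1, 3, 4 and 5 (0.981 to 0.983). There control 5 was closest to its own number. With the replicate block the difference in the Gria2 share was -2.65 percentage points (exact sign-flip permutation p = 0.0625, the smallest that 5 pairs can give, so it cannot pass; 0.188 adjusted). With 1 library left out it ran from -2.93 to -2.27, with an exact permutation p of at most 0.0159, or 0.0476 adjusted over the 3 shares. The Cacng2 share differed by -4.27 to -2.12 points with 1 library left out, and passed after adjustment without control 5 (-4.27) and with the length trend removed (-3.65). The Cnih2 share differed by -0.46 to 1.71 points, reversed without restraint 5 (-0.46). Members had at least 668 counts in each library.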

Other observations

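The genes whose log2 CPM followed each subunit gene most closely over the 10 libraries were looked up among the genes tested, leaving out predicted gene models and mitochondrial genes, as a description. For Gria2 they included Zscan18 (Pearson r = 0.938) and Cntn3, a contactin gene (0.936). For Gria1 they were Disp2 (0.948), Slc24a3, a sodium-calcium exchanger gene (0.946), and Kidins220, a neurotrophin signalling scaffold gene (0.937). For Gria4 they included Pcdhga11, a protocadherin gene (0.920), and the pseudogene Ppp1r2-ps1 (0.908). For Gria3 they were Galc (0.906), Cubn (0.878) and Tex38 (0.847). Each r is over the same 10 libraries, which differ in depth and in their trend on exon length, and is among the highest of the genes searched. No gene was named for more than 1 subunit.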
